A study of Mus musculus with 98 samples.

Results

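The expression of 32 genes that build the postsynaptic scaffold or join synapses was followed through 98 RNA-seq libraries of mouse hippocampal neurons and hippocampus. The genes were taken as a fixed list by symbol, and all 32 were found among the 24754 gene symbols shared by the 6 deposited count tables, which together name 55852. They were the MAGUK scaffolds (Dlg1 to Dlg4), their linkers (Dlgap1 to Dlgap4), Shank1 to Shank3, Homer2 and Homer3, the CaMKII subunits Camk2a, Camk2b and Camk2g with the calmodulin binder Nrgn, the actin and spine proteins Baiap2, Ppp1r9b and Synpo, the Arf and Ras regulators Iqsec1, Iqsec2 and Cnksr2, the inhibitory scaffold Gphn, Nlgn1 to Nlgn3, Nrxn2, Nrxn3, and Lrrtm1 to Lrrtm3. All 32 passed the filter on low counts in every fit.

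At an excitatory synapse, MAGUK proteins hold glutamate receptors under the membrane, Dlgap proteins tie them to Shank, and Shank and Homer join that layer to metabotropic receptors and actin. CaMKII is activated by calcium and calmodulin and is among the most abundant proteins there, while Nrgn holds calmodulin ready when calcium is low. Across the cleft, presynaptic neurexins bind postsynaptic neuroligins and Lrrtm proteins. Gephyrin, the product of Gphn, does the scaffold's work at inhibitory synapses, where Nlgn2 is the main neuroligin.

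The study used a virus to raise ACSS2, which turns acetate into acetyl-CoA. Cultured neurons were primary hippocampal cells of CD1 embryos that received the PhP.eB virus carrying Acss2 (upACSS2) or the empty vector on day 5 for 48 h, then tau (hAD-tau) or PBS on day 7. They were collected on day 9 or day 21, giving 8 resting groups of 3 libraries, and 4 more groups of 3 from day 21 are labelled stimulated, with neither the stimulus nor the strain named in the labels used here. A separate culture without virus held 4 tau and 3 PBS libraries of day 21. Male C57BL6 mice were injected behind the eye with either virus: 12 and 12 aged mice (22 to 23 months, injected at 21 to 22 months, whole hippocampus, taken 30 min after remote recall 2 months later) and 6 upACSS2 and 5 vector mice of 10 months (dorsal hippocampus, 2 weeks after virus and 30 min after fear-conditioning training). Male PS19 mice, which carry a mutant human tau transgene, were injected at 2.5 months and taken 30 min after recall, 1 month later (age 3.5 months) or 6 months later (age 8.5 to 9 months), with 5 mice per virus and time. PS19 mice with upACSS2 at 1 month are labelled as whole hippocampus, where the remaining 3 PS19 groups are labelled dorsal, so that at 1 month the effects of tissue and virus cannot be told apart. All PS19 groups carry the transgene, every virus group carries a virus, and the promoter that drives the viral Acss2 is not given in the sources used here.

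Groups follow the sample titles, which the treatment entry contradicts in 18 samples. Acss2 checked the titles: in resting PBS cultures it stood at 45.8 ± 5.04 CPM (a count relative to the scaled total of its library; SD, n = 3) with vector and 1720 ± 235 with upACSS2 on day 9, and every cultured upACSS2 group lay 5.21 to 6.48 above its vector group on the log2 scale. In mice the gap varied. It was small in aged mice, whose groups overlapped, and in 10-month mice, so the check of the titles is weaker there. Acss2 with upACSS2 and with vector was at 54.4 ± 4.67 and 47.3 ± 3.39 CPM (n = 12 each) in aged mice and at 55.8 ± 4.2 and 44.8 ± 3.06 (n = 6 and 5) in 10-month mice. In PS19 mice it was at 636 ± 646 and 55.1 ± 6.33 CPM at 1 month and at 110 ± 76.4 and 48.2 ± 5.11 at 6 months (n = 5 each). The upACSS2 libraries ran from 60.1 to 1465 CPM and from 44.95 to 236.8 in those PS19 groups, so that some lay within the vector range. Total counts per library ran from 5075099 to 39985460. The summed CPM of 8 neuron markers was 7070 to 7730 on day 9 and 3980 to 7000 on day 21, and that of 8 astrocyte markers 2280 to 2840 and 3670 to 20500, so the older cultures held more astrocyte RNA and differed more among themselves. In such bulk samples, fewer cells of a type and less RNA per cell cannot be told apart. The labels do not say whether replicates were separate cultures, so p-values measure the spread between these libraries, which may be technical for cultures.

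The largest differences among the 32 genes lay between culture days. Averaged over the 4 virus and tau conditions, 13 members were higher and 11 lower on day 21 than on day 9, against a background in which 76.4% of all 14863 genes tested passed the threshold (adjusted p under 0.05 by edgeR's quasi-likelihood test with Benjamini-Hochberg adjustment), 40.6% higher and 35.8% lower. The members' share is thus near that of all genes in both directions. The directions of single members are given below as a description, and related genes going opposite ways were not compared with other gene pairs. Scaling by total counts alone moved the median of all genes from 0.03 to 0.17 on the log2 scale and the split of members to 15 higher and 8 lower (7625 and 3971 over all genes). Gphn, Dlgap4 and Camk2g, whose differences were small, lost their calls under that scaling. In 7 members the 12 libraries of one day did not overlap the 12 of the other, 2 of them higher and 5 lower on day 21 (31.3% of all genes).

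**Figure D1:**
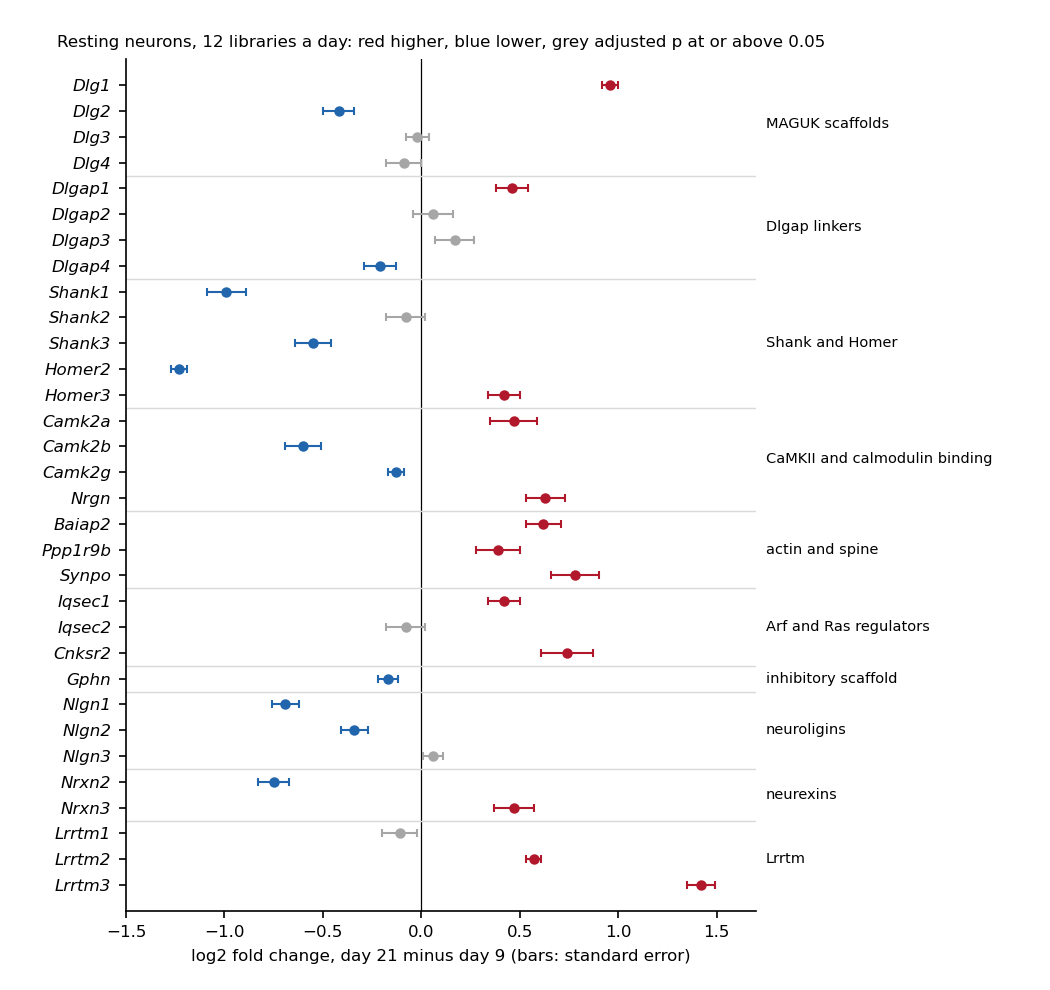
Difference between day 21 and day 9 (log2, mean of the 4 virus and tau conditions, bars ± SE from edgeR) for each of the 32 genes, grouped by role. Red points are called higher, blue called lower and grey not called; Lrrtm3 lies farthest to the right at 1.42 and Homer2 farthest to the left at -1.23.

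Homer2, Dlg1 and Lrrtm3 differed most between the days relative to their error. Homer2, which crosslinks Shank and group I metabotropic receptors, lay between 82.7 and 99.9 CPM on day 9 (median 89.3, n = 12) and between 33.7 and 47.0 on day 21 (median 38.2). Every day 21 library was below every day 9 library, and the gene fell by 1.23 ± 0.04 (SE) on the log2 scale (edgeR, adjusted p = 5.06e-17). Dlg1, the MAGUK known as SAP97, lay between 37.7 and 46.4 CPM on day 9 (median 40.5) and between 65.8 and 91.3 on day 21 (median 81.2). All day 21 values were above all day 9 values, and the difference was 0.96 ± 0.04 (edgeR, adjusted p = 1.59e-14). Lrrtm3, the scarcest member in cultures of day 9, went from 5.48 to 6.67 CPM (median 6.19) to 11.6 to 19.7 (median 16.9), again without overlap, a difference of 1.42 ± 0.07 (edgeR, adjusted p = 3.69e-13).

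The 250 bases before the RefSeq start of these 3 genes are shown because they are the members with the tightest change between days and the sequence before that start differs widely in composition. Homer2 lies on chr7:81600481-81707527 (minus strand), Dlg1 on chr16:31663443-31875129 (plus) and Lrrtm3 on chr10:63928472-64090277 (minus) of GRCm38, in GENCODE vM21. The windows, from the RefSeq start-site table of GRCm38.p6, are chr7:81706926-81707175 for Homer2 (minus; 2 starts are listed, the one listed first is used), chr16:31663685-31663934 for Dlg1 (plus; 4 starts) and chr10:64090256-64090505 for Lrrtm3 (minus; 1 start). By the GENCODE bounds the Homer2 and Dlg1 windows lie inside the gene, after its outermost annotated start, and the last bases of the Lrrtm3 window overlap its gene. Letters are in lower case, 5′ to 3′ on the gene's strand, with each GC box (GGGCGG or its complement CCGCCC) in capitals.
Homer2: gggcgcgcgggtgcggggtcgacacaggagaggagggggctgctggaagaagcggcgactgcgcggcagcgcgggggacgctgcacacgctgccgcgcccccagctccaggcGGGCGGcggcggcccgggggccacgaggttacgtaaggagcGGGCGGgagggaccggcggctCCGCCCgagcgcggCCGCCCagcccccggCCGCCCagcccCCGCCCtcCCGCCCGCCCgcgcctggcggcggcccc
Dlg1: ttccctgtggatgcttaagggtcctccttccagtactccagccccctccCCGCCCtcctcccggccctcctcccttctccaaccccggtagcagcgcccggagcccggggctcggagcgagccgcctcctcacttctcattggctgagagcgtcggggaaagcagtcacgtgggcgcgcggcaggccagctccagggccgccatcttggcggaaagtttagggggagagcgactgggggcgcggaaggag
Lrrtm3: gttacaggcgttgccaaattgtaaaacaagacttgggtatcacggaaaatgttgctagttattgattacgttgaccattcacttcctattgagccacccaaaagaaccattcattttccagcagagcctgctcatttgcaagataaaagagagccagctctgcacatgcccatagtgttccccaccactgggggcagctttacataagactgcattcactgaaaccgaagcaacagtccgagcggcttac
The Homer2 window holds 8 GC boxes, 40 CpG dinucleotides and 83.2% G and C, with more CpG than 98.7% of all 32851 start-site windows. The Dlg1 window holds 1 GC box, 20 CpG and 68.8% G and C. The Lrrtm3 window holds no GC box, 6 CpG, the median of all windows, and 46.0% G and C.

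Of the 32 members, 23 had an entry in the start-site table, with 39 starts in all. Searched on both strands in the 250 bases, GGGCGG was in 18 member windows of 15 genes (46.2%, against 32.74% of all windows). The E-box CAGCTG was in 6 (15.4% against 13%), TATAAA in 4 (10.3% against 12.37%), and TGACG, which is contained in the cyclic AMP response element, in 3 (7.7% against 17.77%). AP-1 sites (TGANTCA) and the REST core (CAGCACC) were in 1 window each (2.6%, against 6.75% and 5.73%). TGACGTCA, the full cyclic AMP response element, and the serum response element were in none of the member windows, against 1.55% and 0.06% of all. These matches describe letters in a window and not binding.

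Among the MAGUK scaffolds, Dlg1 rose and Dlg2 fell. Dlg2 (PSD-93) went from 480 ± 25.3 CPM on day 9 to 360 ± 70.1 on day 21 (n = 12 each), a difference of -0.42 ± 0.08 on the log2 scale (edgeR, adjusted p = 3.63e-05). Dlg4, which encodes PSD-95, was at 447 ± 23.5 and 424 ± 98.0 CPM and did not pass the test (difference -0.09, edgeR adjusted p = 0.392). Dlg3 stood at 209 ± 7.66 and 208 ± 33.6 CPM. Of the linkers, Dlgap1 rose from 270 ± 12.1 to 373 ± 71.7 CPM (0.46 ± 0.08; edgeR, adjusted p = 2.73e-05). Dlgap4 was at 195 ± 8.82 and 168 ± 31.3 CPM, a difference of -0.21 ± 0.08 that passed the test (edgeR, adjusted p = 0.0247) but not with total-count scaling. Dlgap2 and Dlgap3 differed by 0.06 and 0.17 and did not pass.

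The Shank family fell where it changed. Shank1 lay between 271 and 333 CPM on day 9 (median 283) and between 92.9 and 206 on day 21 (median 155). The ranges did not overlap, and the difference was -0.99 ± 0.10 on the log2 scale (edgeR, adjusted p = 1.26e-08). Shank3 went from 281 ± 11.3 to 195 ± 48.3 CPM (-0.55 ± 0.09; edgeR, adjusted p = 2.11e-05). Shank2, at 115 ± 7.86 and 110 ± 26.2 CPM, did not pass (edgeR, adjusted p = 0.453). Homer3 rose while Homer2 fell, from 30.0 ± 1.59 to 41.2 ± 13.1 CPM (0.42 ± 0.08; edgeR, adjusted p = 0.000111).

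The CaMKII subunits moved apart. Camk2b, the subunit that binds actin, lay between 1140 and 1270 CPM on day 9 (median 1220) and between 582 and 1010 on day 21 (median 794). It fell without overlap by 0.60 ± 0.09 on the log2 scale (edgeR, adjusted p = 2.32e-06). Camk2a, the subunit that dominates in mature forebrain, rose from 1110 ± 79.6 to 1540 ± 440 CPM (0.47 ± 0.12; edgeR, adjusted p = 0.0012), although its day 21 libraries ranged from 856 to 2180 CPM and overlapped those of day 9. Nrgn rose from 106 ± 6.01 to 167 ± 47.1 CPM (0.63 ± 0.10; edgeR, adjusted p = 1.11e-05). Camk2g, at 153 ± 4.53 and 141 ± 17 CPM, passed the test at -0.13 ± 0.04 with the scaling used and took the other sign (0.02) with total counts.

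All 3 actin and spine genes rose: Synpo, of the spine apparatus, by 0.78 ± 0.12 on the log2 scale, Baiap2, which bends membrane and binds actin, by 0.62 ± 0.09, and Ppp1r9b, spinophilin, by 0.39 ± 0.11. Their means went from 67.9 to 117, from 81.6 to 126 and from 497 to 655 CPM. Of the Arf and Ras regulators, Cnksr2 rose by 0.74 ± 0.13 and Iqsec1 by 0.42 ± 0.08, and Iqsec2 did not pass (-0.08; edgeR, adjusted p = 0.497). Gphn was at 150 ± 4.26 and 133 ± 15 CPM (-0.17 ± 0.05; edgeR, adjusted p = 0.0026, not called with total-count scaling).

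Of the adhesion genes, neuroligins fell and Lrrtm genes rose where they changed. Nlgn1, the neuroligin of excitatory synapses, lay between 239 and 276 CPM on day 9 (median 255) and between 113 and 190 on day 21 (median 152), without overlap (-0.69 ± 0.07 on the log2 scale; edgeR, adjusted p = 5.61e-09). Nlgn2 went from 292 ± 16.8 to 232 ± 43.9 CPM (-0.34 ± 0.07; edgeR, adjusted p = 7.01e-05), and Nlgn3 did not pass (0.06; edgeR, adjusted p = 0.29). The neurexins split: Nrxn2 lay between 650 and 805 CPM on day 9 and between 250 and 512 on day 21 (-0.75 ± 0.08; edgeR, adjusted p = 1.1e-08). Nrxn3 rose from 102 ± 8.04 to 144 ± 40.0 CPM (0.47 ± 0.10; edgeR, adjusted p = 0.000257). Lrrtm2 rose from 62.1 ± 3.53 to 93.4 ± 15.3 CPM (0.57 ± 0.04; edgeR, adjusted p = 1.06e-10), and Lrrtm1 was at 114 ± 8.09 and 107 ± 27.7 CPM (edgeR, adjusted p = 0.296).

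Other cell types moved with culture age as well: 7 of 8 astrocyte markers were higher on day 21 (median difference 1.54, log2), as were 5 of 6 oligodendrocyte markers and all 4 of oligodendrocyte precursors. Of 8 neuron markers 4 were higher and 2 lower (median 0.05), and 5 of 6 activity-response genes were higher (median 1.64). Their part in the members' differences was not tested. Without the 3 day 21 libraries of highest astrocyte sum (8265 to 20490 CPM), an alternative chosen after seeing the data, 25 members were called. Every day 21 library kept still had a higher astrocyte sum than any day 9 library, so this count does not test the part of astrocyte RNA. It is given without a share of all genes. Within vector and PBS alone, 16 members passed, 7 higher and 9 lower, beside 57.7% of all genes. In a wider list of 50 other postsynaptic and adhesion genes, 12 were higher and 28 lower (median -0.28), among them Tanc1 at 2.01, Elfn1 at 1.82 and Cacng3 at 1.62 and, at the other end, Cadm1 at -1.24, Shisa6 at -1.22 and Tanc2 at -0.97.

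Replicates also lay farther apart on day 21. The median within-group SD of the members was 0.057 on the log2 scale on day 9 and 0.311 on day 21, and it was larger on day 21 in 32 of 32 members. Dlg1 and Homer2 kept a tight spread (0.098 each on day 21), while Cnksr2 had 0.514. Across members, 3 libraries were low on day 21, vector PBS replicates 2 and 3 and vector tau replicate 2. Their mean log2 CPM over the 32 genes was 6.896, 6.859 and 6.919, and their neuron marker sums of 4338, 3976 and 4285 CPM were below those of the other 9 libraries (5618 to 7001). The virus and tau effects on each day were therefore fitted on the 12 libraries of that day, a choice made with earlier results of these data known.

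On day 9 in PBS, 7 members rose with upACSS2 against vector and none fell, beside 10.2% of all 14022 genes called (4.90% higher, 5.35% lower). The changes were small. Nrxn3, a presynaptic partner of Lrrtm proteins, was at 98.8, 85.3 and 94 CPM in the 3 vector libraries and at 114, 111 and 107 with upACSS2. It was the largest at 0.24 ± 0.05 on the log2 scale (edgeR, adjusted p = 0.00692). Shank1 was at 276, 272 and 284 CPM with vector and at 302, 299 and 333 with upACSS2 (0.16 ± 0.04; edgeR, adjusted p = 0.0256). Nlgn2 was at 281, 280 and 282 CPM with vector and at 311, 318 and 301 with upACSS2 (0.13 ± 0.04; edgeR, adjusted p = 0.038). All upACSS2 libraries lay above all vector libraries for these 3 genes.

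The other 4 were Dlgap2 (0.22 ± 0.07; edgeR, adjusted p = 0.0359), Lrrtm1 (0.17 ± 0.05; 0.0379), Camk2a (0.14 ± 0.04; 0.0283) and Dlgap1 (0.12 ± 0.04; 0.0437), of which Lrrtm1 and Camk2a overlapped between the groups. Of all 32, 23 differences were positive, with a median of 0.10 against 0 over all genes, and 13 members lay wholly higher (30.8% of all genes did not overlap). The calls were fragile. Without upACSS2 replicate 1, 2 or 3, 4, 3 and 4 members passed, and without vector replicate 1, 2 or 3, 2, 2 and 4. With total-count scaling 3 passed. These counts are given without those over all genes, so they do not show a loss particular to the members. With all 24 resting libraries in the fit 0 members passed, and calls over all genes went from 1437 to 2. Of the 50 other genes, 6 were higher, led by Cacng3 (0.38), Elfn1 (0.37) and Shisa7 (0.36), and Cadm4 was lower (-0.19). Markers of oligodendrocyte precursors and of dividing cells moved too, 3 of 4 and 4 of 4 lower (medians -0.63 and -0.55), the summed dividing-cell markers at 50.2 to 67.6 CPM with vector and 38.7 to 42.8 with upACSS2. Of the 8 neuron markers 3 were higher and 2 lower, and their part in the result was not tested.

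Tau gave a like picture in vector cultures on day 9. Against PBS, 3 members rose and none fell, beside 4.28% of all genes called (2.01% higher, 2.27% lower). Camk2a was at 982, 940 and 1067 CPM in PBS and at 1166, 1199 and 1150 with tau (0.23 ± 0.04 on the log2 scale; edgeR, adjusted p = 0.00292). Nrxn2 was at 650, 701 and 680 CPM in PBS and at 763, 805 and 721 with tau (0.17 ± 0.04; edgeR, adjusted p = 0.0246). Dlg4 was at 433, 418 and 428 CPM in PBS and at 490, 482 and 453 with tau (0.15 ± 0.04; edgeR, adjusted p = 0.0242). These 3 did not overlap between the groups. Over the 32 genes, 26 differences were positive (median 0.08), and 10 members lay wholly higher and 1 wholly lower, where 21% of all genes did not overlap. This comparison and that of upACSS2 in PBS share the same 3 vector PBS libraries, so their common direction is not independent.

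Leaving out vector tau replicate 1, 2 or 3 left 1, 1 and 6 members called in the tau comparison, and leaving out vector PBS replicate 1 left 1. These counts too are given without those over all genes. With all 24 resting libraries 0 members passed, and calls over all genes went from 600 to 1. Cadm3, from the wider list, also rose with tau (0.14). Of 6 activity-response genes 5 were lower with tau (median -0.87), with summed levels of 77.3 to 89.2 CPM in PBS and 42.5 to 58.9 with tau, and 3 of 4 precursor markers were lower (median -0.70). Their part was not tested.

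The virus by tau interaction on day 9 was negative for 3 members, Nrxn2 (-0.28 ± 0.06 on the log2 scale; edgeR, adjusted p = 0.0436), Nlgn2 (-0.25 ± 0.06; 0.0473) and Dlg4 (-0.23 ± 0.05; 0.0473), beside 0.663% of all genes (0.278% higher, 0.385% lower). Dlg4 stood at 426 ± 7.91 CPM with vector in PBS, 455 ± 14.5 with upACSS2 in PBS, 475 ± 19.1 with vector in tau and 432 ± 12.5 with upACSS2 in tau (n = 3 each). Nlgn2 stood at 281 ± 0.895, 310 ± 8.29, 299 ± 19.6 and 277 ± 3.26 CPM in that order, and Nrxn2 at 677 ± 25.6, 739 ± 30.4, 763 ± 42.1 and 685 ± 13. In each, the groups with 1 agent were highest and the group with both was close to the group with neither. The interaction calls depended on single libraries: 0 members passed without any 1 of 8 of the 12 libraries (upACSS2 tau replicates 1, 2 and 3, upACSS2 PBS 1 and 2, vector tau 1 and 2, vector PBS 1), 1 and 2 without vector PBS replicates 2 and 3, and 5 without vector tau replicate 3. Here as well the counts over all genes are not given.

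**Figure D2:**
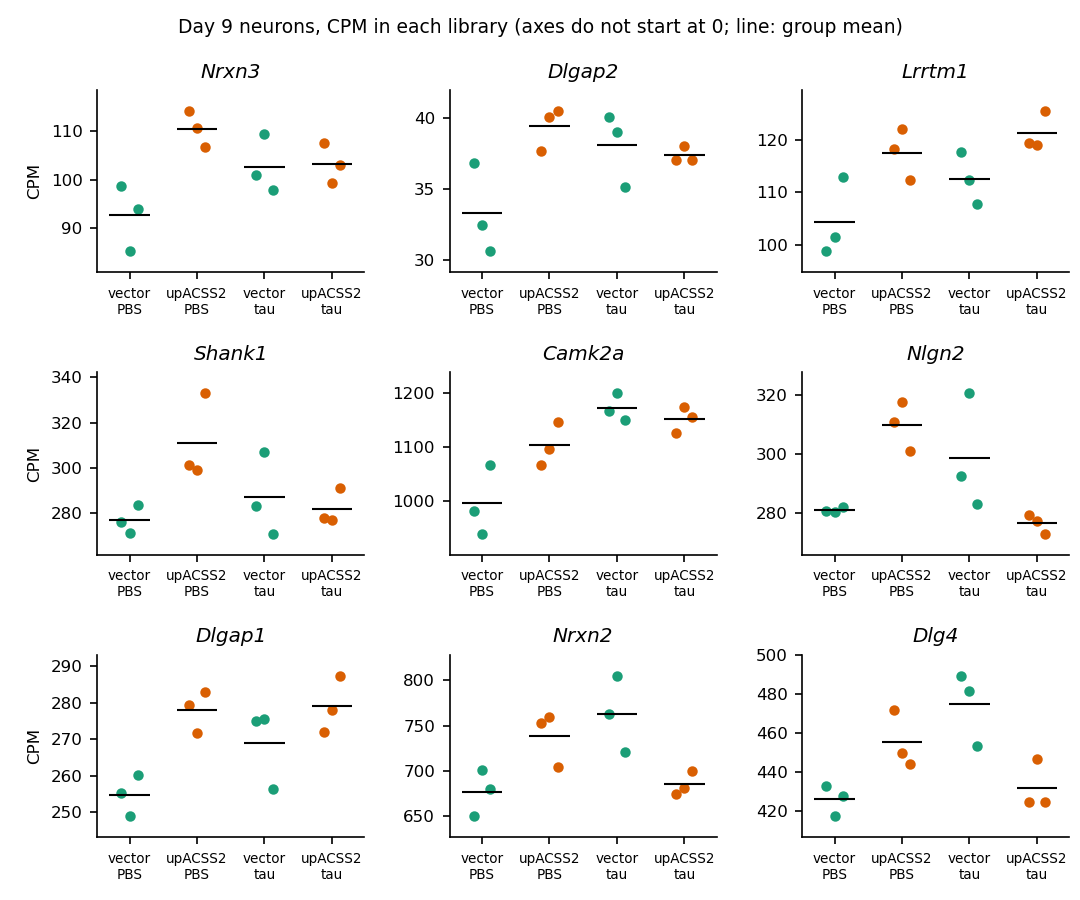
CPM of 9 members in each of the 12 resting day 9 libraries, by virus and tau group; points are libraries, and the vertical axes do not start at 0. Nrxn2, Nlgn2 and Dlg4 are lower in vector PBS and in upACSS2 tau than in the other 2 groups, on average.

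No member passed for upACSS2 against vector in tau on day 9 (0.692% of all genes called; edgeR, 5 members at an unadjusted p under 0.05; DESeq2, 2 members, Nrxn2 and Dlg4). Nrxn2 was at 675, 681 and 700 CPM with upACSS2, below all vector tau libraries (-0.16 ± 0.04; edgeR, adjusted p = 0.0779), and so was Dlg4 at 425, 447 and 425 (-0.14 ± 0.04; 0.0802). Without vector tau replicate 3, 2 members passed, a count given without that over all genes. None passed for tau in upACSS2 cultures (0.349% of all genes), where 5 members had an unadjusted p under 0.05 by edgeR. DESeq2 called 1 member, Nlgn2, and took the count over all genes from 49 to 79 in that comparison. There Nlgn2 was at 279, 277 and 273 CPM with tau, below the PBS libraries (-0.16; edgeR, adjusted p = 0.0842), and Shank1 was lower by a similar amount (-0.14; 0.237).

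On day 21, at rest, no member passed in any virus or tau comparison, with percentages of all 14639 genes called of 0.0137% (upACSS2 in PBS), 0.0273% (upACSS2 in tau), 0% (tau with vector), 0% (tau with upACSS2) and 0% (interaction). By edgeR 5, 3, 4, 1 and 1 members had an unadjusted p under 0.05, and DESeq2 called 1 member, Lrrtm2, for upACSS2 in PBS and 0 in the rest. Over all genes DESeq2 called 360, 131, 3, 11 and 3 in that order. Lrrtm2, a neurexin ligand that helps keep AMPA receptors at synapses, was at 85.7, 81.0 and 64.6 CPM with vector in PBS and at 111, 102 and 116 with upACSS2. It lay higher in all upACSS2 libraries (0.50 ± 0.10 on the log2 scale; edgeR, adjusted p = 0.118). In tau it was at 85.3, 82.1 and 83.2 CPM with vector and at 99.7, 108 and 103 with upACSS2, again without overlap (0.32 ± 0.10; edgeR, adjusted p = 0.313). These comparisons share no library, and in both the adjusted p missed the threshold.

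Dlg1 lay the other way in PBS, at 86.7, 86.4 and 91.3 CPM with vector and at 78.2, 65.8 and 73.1 with upACSS2 (-0.29 ± 0.10; edgeR, adjusted p = 0.21). Homer3 was at 44.8, 34.9 and 33.4 CPM in vector PBS and at 67.6, 45.4 and 61.2 with vector and tau (0.62 ± 0.21; edgeR, adjusted p = 0.53). Nrgn was at 135, 131 and 161 CPM with upACSS2 in PBS and at 236, 220 and 203 with upACSS2 in tau, without overlap (0.64 ± 0.27; edgeR, adjusted p = 0.762). The 32 differences leaned positive in all 4 comparisons, 28, 28, 27 and 27 of 32 with medians of 0.24, 0.20, 0.21 and 0.15, although the comparisons share groups. The 50 other synaptic genes leaned so too (medians 0.28, 0.14, 0.16 and 0.10), and so did the neuron markers (0.28, 0.18, 0.16 and 0.23), with the 3 low libraries in the vector groups. Relative to the 8 neuron markers, an alternative chosen after seeing the data, the mean of the 32 genes differed by -0.14 for upACSS2 in PBS, -0.12 for upACSS2 with tau, -0.01 for tau against PBS in vector cultures and 0 in upACSS2 cultures.

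Stimulated cultures of day 21 are in a table of their own, so their levels are set beside those of resting cultures without a test. The 6 activity-response genes, Fos and Arc among them, were higher in the stimulated libraries by 3.01 to 7.44 on the log2 scale. The median difference of the 32 genes, stimulated minus resting, was 0.46 on the log2 scale in vector PBS, 0.20 in vector tau, 0.07 in upACSS2 PBS and 0.15 in upACSS2 tau, with 31, 28, 19 and 22 genes positive. Over all 14665 genes the medians were 0, 0, 0.02 and 0.02. Lrrtm2 had the largest difference of the 32 genes in each condition: in vector PBS it was at 165, 224 and 180 CPM when stimulated, against 64.6 to 85.7 at rest. Its differences were 1.29, 1.12, 0.93 and 0.89, and no stimulated library overlapped a resting one of its condition.

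Shank1, which lost most among the Shank genes between day 9 and day 21, was at 251, 189 and 259 CPM in stimulated vector PBS and at 166, 92.9 and 95.8 at rest. Its differences of 1.02, 0.71, 0.55 and 0.71 were also free of overlap in all 4 conditions. Nlgn2 was higher by 0.66, 0.44, 0.16 and 0.27 and Nlgn1 by 0.35, 0.38, 0.07 and 0.30, each without overlap in 3 conditions. Gphn differed by 0.04, 0.06, -0.15 and -0.01 and overlapped in all 4. The share of all genes without overlap between stimulated and resting groups is not given, so a lack of overlap does not set these members apart. The low resting libraries of vector PBS and vector tau are part of these differences, and stimulated and resting libraries are in separate count tables, so a difference between the tables cannot be told apart from stimulation.

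**Figure D3:**
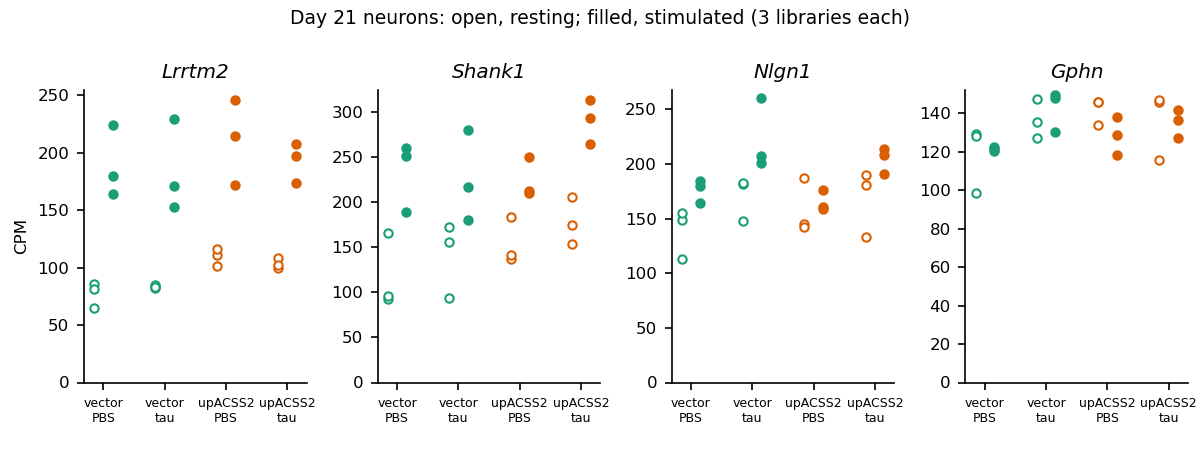
CPM of Lrrtm2, Shank1, Nlgn1 and Gphn in resting (open) and stimulated (filled) day 21 libraries of the 4 virus and tau conditions, axes from 0. Lrrtm2 and Shank1 are higher in every stimulated library of a condition than in its resting libraries, and Gphn overlaps.

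Within the stimulated table no member passed in any comparison, beside 0.208% of all 14939 genes for the virus in PBS, 0.937% for the virus in tau, 3.02% for tau with vector, 0.208% for tau with upACSS2 and 0% for the interaction. By edgeR 5, 7, 7, 13 and 6 members had an unadjusted p under 0.05. These counts are given without a share of all genes and do not show a lean of the set. DESeq2 called 0, 0, 4, 7 and 1 members, and 420, 962, 1521, 458 and 131 of all genes. Homer3 recurred: it was at 32.8, 37.4 and 39.4 CPM in vector PBS, 28, 24.5 and 25.9 in upACSS2 PBS, 64.4, 47.4 and 48.2 in vector tau, and 43.2, 53.7 and 36.0 in upACSS2 tau. It was higher with tau in every library of both viruses (0.54 ± 0.15 with vector, edgeR adjusted p = 0.0639; 0.76 ± 0.15 with upACSS2, edgeR adjusted p = 0.0713) and lower with upACSS2 in PBS (-0.49 ± 0.15; edgeR, adjusted p = 0.172).

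Lrrtm1 was at 83.8, 91.9 and 105 CPM in upACSS2 PBS and at 140, 142 and 139 in upACSS2 tau (0.59 ± 0.12; edgeR, adjusted p = 0.0713). Camk2g was at 155, 148 and 160 CPM in vector PBS and at 133, 133 and 122 in vector tau (-0.25 ± 0.06; edgeR, adjusted p = 0.054). With the replicate number as a block, used because same-numbered libraries deviated together here, Camk2g passed and was the 1 member called. Over all genes 1069 were called with that block. Without vector tau replicate 2 there were 4 calls and without vector PBS replicate 2 there were 2, counts given without those over all genes. Ppp1r9b was at 795, 723 and 813 CPM in vector PBS and at 605, 573 and 654 in upACSS2 PBS, without overlap (-0.35 ± 0.12; edgeR, adjusted p = 0.192).

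Nrgn showed the largest interaction in the stimulated table (1.13 ± 0.30; edgeR, adjusted p = 0.233). It was at 227, 146 and 217 CPM in vector PBS, 133, 101 and 151 in upACSS2 PBS, 190, 114 and 126 in vector tau, and 191, 198 and 228 in upACSS2 tau. The upACSS2 libraries were thus above all vector libraries in tau (0.52 ± 0.21; edgeR, adjusted p = 0.186) and overlapped them in PBS. For tau with upACSS2, 27 of 32 members were positive (median 0.20) and 16 were wholly higher and 1 wholly lower, where 23.7% of all genes did not overlap. Neuron marker sums were higher with tau there too (6940 to 8110 against 5950 to 6970 CPM), and relative to the 8 neuron markers the mean of the 32 genes differed by -0.01 in place of 0.23. With total-count scaling 23 of the differences of mean log2 CPM were positive in place of 28. In the comparison of upACSS2 with vector in tau, that scaling gave 18 positive in place of 26, so the lean of the 32 genes there depends on it.

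In the day 21 culture without virus, no member passed for tau against PBS (0% of 16341 genes), and DESeq2 called 0 members. By edgeR 9 members had an unadjusted p under 0.05, a count given without a share of all genes. Nrxn3 was at 50.1, 60.3, 97.7 and 59.4 CPM with tau and at 122, 98.9 and 195 in PBS, all tau libraries below all PBS libraries (-1.05 ± 0.29 on the log2 scale; edgeR, adjusted p = 0.309). Iqsec1 was at 149, 144, 156 and 137 CPM with tau and at 179, 171 and 216 in PBS (-0.36 ± 0.11; edgeR, adjusted p = 0.319). On the other side Camk2a was at 1059, 1003, 1045 and 1444 CPM with tau and at 590.5, 589.8 and 913.2 in PBS (0.71 ± 0.22; edgeR, adjusted p = 0.319), a gene named after its values were seen. Altogether 12 differences were positive and 20 negative (median -0.11), and 3 members lay wholly higher and 4 wholly lower, where 16.7% of all genes did not overlap. PBS replicate 3 stood apart: its mean log2 CPM over the 32 genes was 7.189 against 6.632 to 6.774 in the other 6 libraries, its neuron marker sum 5093 against 2302 to 3188 CPM, and its dividing-cell sum 6.185 against 210.9 to 347.2. Relative to the neuron markers the mean of the 32 genes was 0.45 higher with tau, where the plain difference was -0.13.

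In mice no member passed for upACSS2 against vector. Nor did Acss2 itself, with edgeR adjusted p of 0.832 in aged and 0.518 in 10-month mice. In PS19 mice it was 0.371 at 1 month and 0.373 at 6 months. Acss2 was 1.15 times the vector level in aged and 1.24 times in 10-month mice, so these groups compare small differences in Acss2 RNA. In the aged mice 0% of 15157 genes were called (edgeR, 3 members at an unadjusted p under 0.05; DESeq2, 0). Shank1 ran from 275 to 454 CPM with vector (median 376) and from 346 to 582 with upACSS2 (median 422), a difference of 0.20 ± 0.07 on the log2 scale with wide overlap (n = 12 each; edgeR, adjusted p = 0.832). Nlgn2 ran from 143 to 197 CPM (median 187) with vector and from 169 to 231 (median 199) with upACSS2 (0.14 ± 0.05; edgeR, adjusted p = 0.848). The median over the 32 was 0.03.

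In the 10-month mice 0% of 13629 genes were called (edgeR, 3 members at an unadjusted p under 0.05; DESeq2, 0). Shank3 was the 1 member whose groups did not overlap, where 0.814% of all genes did not. It was at 319, 339, 346, 316 and 346 CPM in the 5 vector mice and ran from 355 to 413 (median 390) in the 6 upACSS2 mice (0.22 ± 0.06; edgeR, adjusted p = 0.518). Dlgap2 was at 54.8 ± 10.5 CPM with vector and 70.0 ± 8.64 with upACSS2 (0.36 ± 0.12; edgeR, adjusted p = 0.518).

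In PS19 mice 0% of 15850 genes were called for upACSS2 at 1 month and 0% at 6 months (edgeR, 0 and 1 members at an unadjusted p under 0.05; DESeq2, 0 and 0). At 1 month 30 of 32 differences were positive (median 0.15), in groups whose tissue label also differs. Dlgap2 was at 62.7, 59.3, 73.6, 48.0 and 59.2 CPM with vector and at 88.8, 76.3, 70.7, 66.5 and 65.2 with upACSS2 (0.28 ± 0.14; edgeR, adjusted p = 0.964). At 6 months 17 were positive and 15 negative. Iqsec1 was at 250, 258, 304, 282 and 278 CPM with vector and at 237, 237, 145, 259 and 257 with upACSS2, with upACSS2 replicate 3 far below the rest (-0.27 ± 0.12; edgeR, adjusted p = 0.305).

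Between 1 and 6 months after injection, which is also a difference in age, no member passed with either virus. With vector, 7.46% of all genes were called (edgeR, 3 members at an unadjusted p under 0.05; DESeq2, 1, Dlg2), and 24 of 32 members were negative (median -0.09). Of the 8 neuron markers 6 were negative as well (median -0.13), and relative to them the mean of the 32 genes differed by 0 in place of -0.12. Dlg2 was at 484, 465.7, 510, 384 and 435 CPM at 1 month and at 388, 438, 330, 329 and 380 at 6 months (-0.29 ± 0.10; edgeR, adjusted p = 0.0857), and it was called without 6-month vector replicate 2. With upACSS2, 0.0442% of all genes were called, and DESeq2 called 0 members. By edgeR 11 members had an unadjusted p under 0.05, a count given without a share of all genes. With upACSS2, 31 of 32 members were negative (median -0.22, all genes 0.02). Dlg2 there was at 483, 459, 595, 435 and 421 CPM at 1 month and at 410, 377, 345, 403 and 376 at 6 months, without overlap (-0.33 ± 0.10; edgeR, adjusted p = 0.207).

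Dlgap3 was at 432, 331, 644, 391 and 407 CPM at 1 month with upACSS2 and at 268, 349, 246, 358 and 305 at 6 months (-0.53 ± 0.16; edgeR, adjusted p = 0.186). Groups did not overlap in 3 members, all lower, where 3.15% of all genes did not. The 50 other synaptic genes were lower as well, 45 of 50 (median -0.16), as were 7 of 8 neuron markers (median -0.20), and relative to those markers the mean of the 32 genes differed by -0.06 in place of -0.26. The 1-month upACSS2 group carries the other tissue label, so tissue and time cannot be told apart in this comparison. The difference between the viruses over time did not pass for any member (0% of genes; edgeR, 1 member at an unadjusted p under 0.05; DESeq2, 0); Iqsec1 had the smallest p (-0.44 ± 0.16; edgeR, adjusted p = 0.366).

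**Figure D4:**
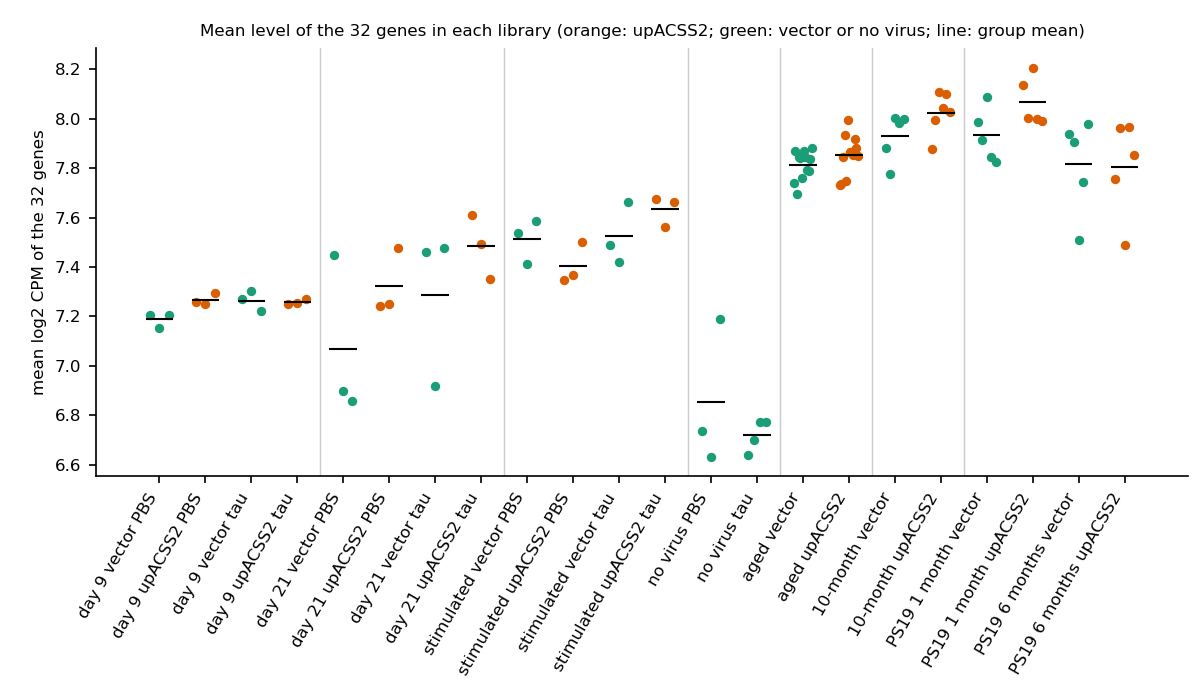
Mean log2 CPM of the 32 genes in each of the 98 libraries, by the 22 groups; each point is a library, scaled within its table. Day 9 groups are tight (group means 7.19 to 7.27), resting day 21 groups spread more (7.07 to 7.49), and mouse groups lie between 7.81 and 8.07.

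Set side by side, the 32 genes had a mean log2 CPM of 7.19 to 7.27 in the 4 resting day 9 groups, 7.07 to 7.49 in the resting day 21 groups with virus, 7.41 to 7.63 when stimulated and 7.81 to 8.07 in the mice, levels that come from separately scaled tables. The families did not share that order. The CaMKII and Nrgn group was at 8.55 to 8.62 on day 9 and 9.83 to 10.23 in mice. Neuroligins were at 7.5 to 7.64 on day 9 and 6.48 to 6.77 in mice, and Gphn at 7.21 to 7.27 and 6.15 to 6.41. The day 21 culture without virus had group means of 6.72 and 6.85 for all 32 genes, 6.46 and 6.43 for neuroligins and 6.34 and 6.55 for Gphn (tau and PBS), so the distance between cultures and mice depends on the culture table. Hippocampus and cultured neurons differ in cell make-up, and its part was not tested.

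Per kilobase of exon, which allows genes to be compared, Camk2b led the cultures of day 9 with vector in PBS at 263 ± 4.7 CPM per kb (n = 3), before Camk2a at 176 ± 11.5. On day 21 Camk2a led at 223 ± 90.5, with Camk2b at 164 ± 52.9, an order within the spread of the 3 libraries. In aged vector mice Nrgn stood at 637 ± 66.0 and Camk2a at 624 ± 57.3 (n = 12), which do not differ beyond their spread, and Camk2b at 238. Nrgn and Camk2a also led in the 10-month vector mice (904 ± 96.0 and 866 ± 64.0, n = 5). The lowest members were Lrrtm3 at 1.63 on day 9, Homer2 at 3.12 on day 21 and Nlgn3 at 4.03 in aged mice.

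Ratios between paralogs within a library, which do not depend on its scaling, differed between the culture days in the resting virus cultures. The 6 pairs were chosen after their values were seen and are a description. Camk2a over Camk2b was 0.622 to 0.765 in the 12 day 9 libraries (median 0.728), 1.12 to 1.83 on day 21 at rest (median 1.48) and 2.22 to 3.17 in the aged mice (median 2.59). Dlg1 over Dlg2 went from 0.096 to 0.124 on day 9 to 0.203 to 0.468 on day 21, and Nrxn3 over Nrxn2 from 0.119 to 0.156 to 0.232 to 0.437, with 0.455 to 1.09 in aged mice. Homer3 over Homer2 was 1.21 to 1.43 on day 9, 2.56 to 6.71 on day 21 and 0.687 to 2.90 in aged mice, so here the mice did not lie beyond the older cultures. Dlgap1 over Dlgap4 was 0.782 to 0.90 on day 9, 1.17 to 1.53 on day 21 and 1.58 to 2.03 in aged mice. The 7 day 21 libraries without virus did not all follow: Dlgap1 over Dlgap4 was 0.738 to 1.26 there (median 0.897) and Nrxn3 over Nrxn2 0.101 to 0.497 (median 0.202), both overlapping day 9, while Camk2a over Camk2b was 1.06 to 4.11 and Dlg1 over Dlg2 0.261 to 1.09, both above it. Among these libraries Camk2a over Camk2b was 2.15 to 4.11 with tau and 1.06 to 1.37 in PBS, without overlap.

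**Figure D5:**
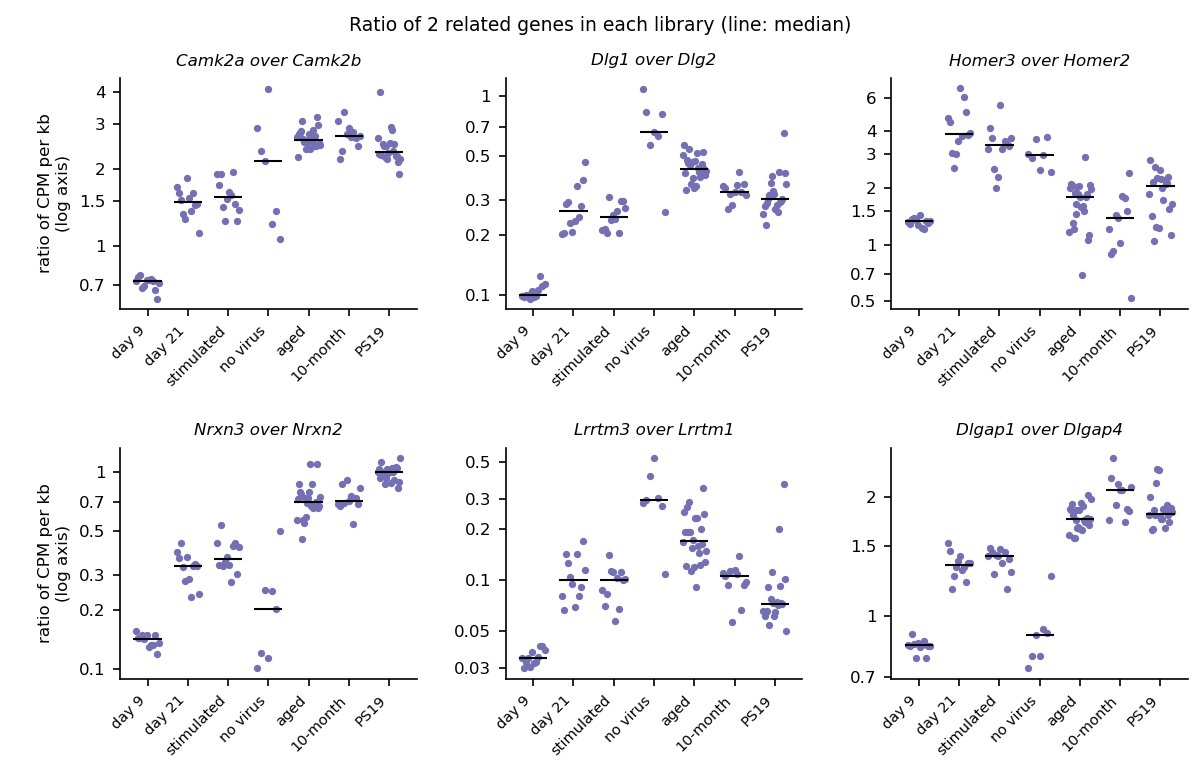
Ratio of CPM per kb between paralogs in each library (log axis; points are libraries, lines are medians) for 6 pairs and 7 sets of libraries. Resting virus cultures of day 9 and day 21 do not overlap in any of the 6, while day 21 without virus overlaps day 9 for Dlgap1 over Dlgap4 and Nrxn3 over Nrxn2; for Camk2a over Camk2b the medians are 0.728, 1.48 and, in aged mice, 2.59.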

How the data were processed

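Gene expression was measured by RNA-seq in 98 mouse libraries in 22 groups. In 6 tables the authors deposited raw counts, listed by gene symbol. Per the labels' protocols, libraries were made from 130 ng of RNA with an NEB kit. The submitters' processing notes name STAR, featureCounts, HTSeq, DESeq2 and mm10; which made which file, and the strand setting, are not given in the sources used here, so reads of near-identical or overlapping genes may be split in an unknown way. A row with no gene name was left out of library sizes; it held 6.13% to 8.74% of the counts in the table without virus.

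The quasi-likelihood test of edgeR 4.0.16 (R 4.3.3) was run with TMM scaling (filterByExpr by group, minimum count 10, minimum total 15), 1 mean per group, two-sided, with Benjamini-Hochberg adjustment over all genes tested at 0.05. There were 25 comparisons. Counts of members at an unadjusted p under 0.05 are given without the share of all genes at that level. They are therefore no measure of the members as a set. All groups of a table shared 1 fit, except that resting virus and tau effects used the 12 libraries of 1 day, since an earlier analysis of these data had shown unequal spread (biological coefficient of variation 0.042 on day 9, 0.189 on day 21). CPM are relative to TMM-scaled library sizes; log2 CPM used a prior count of 2. CPM per kb used exon-union lengths of GENCODE vM21. A member score is the mean log2 CPM of the 32 genes. The edgeR step was tested on simulated data holding 2-fold changes. It recovered 22.1% of them without virus, 62.6% on day 21, 74.2% when stimulated, 76.6% in PS19 and 85.7% in 10-month mice. On day 9, over both days and in aged mice it recovered 94.5%, 95% and 95.5%. False calls were 4.06% to 8.33% of calls, with 8.25% on day 9. Smaller changes were not simulated, so a lack of calls, above all without virus or on day 21, does not show a lack of change. Same-numbered replicates deviated together in 3 comparisons, tau without virus (correlations 0.22 to 0.394), stimulated upACSS2 in tau (0.111 to 0.359) and stimulated tau with vector (0.123 to 0.326).

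Members, lists, role groups and tests were chosen with earlier results of these data known. The rule for members given in full was those past the threshold, at most 6 per direction, or the 2 with the smallest p where none passed; values of the remaining called members are given besides; of the wider list, at most 3 per direction. A gene that met this rule is not reported here. Alternatives were DESeq2 1.42.0, RLE factors, no filter, other sets of libraries in the fit, limma 3.58.1 with day weights, the replicate block and leaving out each library (the aged mice excepted, whose groups hold 12 each); added after the data were seen were total-count scaling, scores relative to neuron markers and the fit without 3 astrocyte-high libraries. Depth is 5075099 to 39985460 counts per library.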

Additional observations from a re-analysis of the deposited data

Results flagged for a closer look

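In groups of 4 to 10 libraries, the 32 members and their mean were examined by Dixon's criterion on log2 CPM, 231 combinations in all, and 28 of them, each of a single member, held a library far from the rest, where chance gives 1 in 20, or 11.6. They gather in a few libraries. In PS19 mice with upACSS2 at 6 months, replicate 3 was low in Dlgap4 (7.04, others 7.64 to 7.82), Shank2 (6.48, others 7.12 to 7.24), Shank3 (8.04, others 8.43 to 8.57), Iqsec1 (7.18, others 7.89 to 8.02), Nlgn2 (6.52, others 7.42 to 7.74), Nrxn2 (7.49, others 8.04 to 8.17) and Nrxn3 (7.42, others 7.95 to 8.17). Its microglia marker sum was 841.3 CPM (others 396.8 to 621.9) and its CA1 marker sum 330.8 (others 299.7 to 819.7). In that group replicate 1 was high in Nlgn1 (7.21, others 6.91 to 6.98) and replicate 5 low in Lrrtm2 (6.40, others 6.57 to 6.64).

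In PS19 vector mice at 6 months, replicate 3 was high in Dlg1 (7.47, others 6.58 to 6.82) and Camk2g (8.26, others 7.37 to 7.58). It was low in Shank3 (7.36, others 8.33 to 8.59), Camk2b (9.54, others 10.34 to 10.67), Gphn (6.04, others 6.30 to 6.34) and Lrrtm1 (5.95, others 6.71 to 6.93). Its astrocyte marker sum was 10800 CPM (others 5549 to 8057), its microglia sum 979.7 (others 404.7 to 734.5) and its CA1 sum 302.9 (others 467 to 777.7). At 1 month, vector replicate 4 was high in Dlg1 (7.04, others 6.72 to 6.78), Camk2g (7.68, others 7.24 to 7.32) and Lrrtm3 (4.88, others 3.54 to 3.65), and upACSS2 replicate 5 was low in Homer3 (5.83, others 6.64 to 6.72) and Nlgn1 (7.00, others 7.18 to 7.25).

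In 10-month vector mice, replicate 2 was low in Camk2a (12.06, others 12.26 to 12.34), Camk2b (10.24, others 10.55 to 10.61), Nrgn (10.06, others 10.37 to 10.46) and Baiap2 (7.59, others 8.0 to 8.12). Its summed thalamus markers were 261.8 CPM (others 96.49 to 134.0) and its CA1 markers 326.3 (others 419.4 to 899.9). With upACSS2, replicate 3 was high in Lrrtm2 (6.93, others 6.43 to 6.6) and replicate 5 low in Lrrtm3 (3.44, others 4.10 to 4.28). In the tau group without virus, replicate 4 was high in Camk2a (10.50, others 9.97 to 10.05) and low in Nrgn (5.65, others 6.16 to 6.21). The part of these marker sums was not tested.

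The virus by tau interaction term of edgeR on day 9 passed the threshold narrowly for Nrxn2 (-0.28 on the log2 scale, adjusted p = 0.0436), Nlgn2 (-0.25, 0.0473) and Dlg4 (-0.23, 0.0473). Over all genes 0.663% passed. Leaving out 1 library at a time gave 0 to 5 members. With all 24 resting libraries in the fit, calls over all genes went from 93 to 0.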

How the results depend on the processing

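Counts below are of the 32 members. With all 24 resting libraries in the fit, day 9 counts were 0 for upACSS2 in PBS (7 as reported), 0 for tau with vector (3) and 0 for the interaction (3), while day 21 counts were 4 for upACSS2 in PBS and 1 for upACSS2 in tau (both 0). Over all genes the same change took upACSS2 in PBS from 1437 to 2 on day 9 and from 2 to 1576 on day 21. Without the filter on low counts, day 9 gave 2 (upACSS2 in tau), 5 (tau with vector), 1 (tau with upACSS2) and 6 (interaction), and stimulated tau with upACSS2 gave 2. Over all genes these comparisons went from 97, 600, 49, 93 and 31 to 368, 1153, 201, 794 and 110. DESeq2 gave 2 and 1 for upACSS2 in tau and tau with upACSS2 on day 9, 1 for upACSS2 in PBS on day 21, 4, 7 and 1 for stimulated tau with vector, tau with upACSS2 and the interaction, and 1 for time in PS19 vector mice. Over all genes DESeq2 took upACSS2 in PBS on day 21 from 2 to 360 and time in PS19 vector mice from 1182 to 1871. It took stimulated tau with vector, tau with upACSS2 and the interaction from 451, 31 and 0 to 1521, 458 and 131. With only the 2 groups compared, tau with vector and tau with upACSS2 gave 1 and 1 on day 9, and stimulated tau with upACSS2 gave 2. Over all genes these comparisons went from 600, 49 and 31 to 257, 125 and 167. Total-count scaling gave 3 for upACSS2 in PBS and 1 for the interaction on day 9, and turned Camk2g between days from -0.13 to 0.02.

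With the replicate number as a block, stimulated upACSS2 in PBS gave 1, tau with vector 1, tau with upACSS2 8 and the interaction 1, and no other count of members moved by over 1.5 times. Over all genes the block took those stimulated comparisons from 31, 451, 31 and 0 to 280, 1069, 487 and 166. Same-numbered libraries deviated together in tau without virus, stimulated upACSS2 in tau and stimulated tau with vector, with blocked counts of 0, 0 and 1. Whether the numbers mark a shared culture is not in the labels. The leave-out counts that follow are given without those over all genes. Leaving out 1 library at a time gave 2 to 4 for upACSS2 in PBS, 0 to 2 for upACSS2 in tau, 1 to 6 for tau with vector and 0 to 5 for the interaction on day 9, 0 to 4 for stimulated tau with vector, 0 to 1 for time in PS19 vector mice, 24 to 25 between days over 4 conditions and 12 to 18 in vector PBS.

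The median over members in place of the mean gave 0.04, 0.03 and 0.01 (log2) for upACSS2 in PBS, tau with vector and tau with upACSS2 on day 9, where the mean gave 0.08, 0.08 and -0.01. Relative to the 8 neuron markers, the mean differed by 0.45 for tau without virus, -0.14, -0.12 and 0 for upACSS2 in PBS, upACSS2 in tau and tau with upACSS2 on day 21, -0.09 and -0.01 for upACSS2 in tau and tau with upACSS2 when stimulated, 0.24 between days, 0.36 in vector PBS, and -0.06 for time in PS19 upACSS2 mice; values close to 0, -0.01 for tau with vector on day 21 and 0 for time in PS19 vector mice, moved by less than the spread between replicates. Of the single-gene values under alternatives, 1566 kept direction and side of the threshold, 108 lost it, 31 gained it and 1 reversed.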

Other observations

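Genes of inhibitory neurons moved against the inhibitory synapse members between culture days. Gad1, which makes GABA, was at 302 ± 18.4 CPM on day 9 and 708 ± 129 on day 21 (SD, n = 12 each; 1.21 ± 0.06 on the log2 scale; edgeR, adjusted p = 9.58e-14). Sst, a neuropeptide of interneurons, went from 91.0 ± 12.2 to 167 ± 33.2 CPM (0.87 ± 0.08; edgeR, adjusted p = 1.15e-09). All 5 inhibitory neuron markers rose (Gad1, Gad2, Slc32a1, Sst and Pvalb, median 1.15), without overlap between the days, while Gphn differed by -0.17 and Nlgn2 by -0.34. These genes were picked for this comparison after their values were seen.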
